A study of Mus musculus with 304 samples.

Results

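Single dentate granule cells of the mouse that carried Id2 from a virus were divided by whether they held RNA of Ifit1, a gene induced by interferon. The 2 sides were selected on the Ifit1 count of each cell. Counts were present for 71 Id2 cells that passed quality control. Of these, 28 had Ifit1 at 10 or more counts per 1000000 reads (CPM) and are called Ifit1-high. Another 40 had Ifit1 below 1 CPM and are called Ifit1-low, and 3 lay between these limits. Together the 68 cells were part of 252 cells with counts and a passing label in the series. Each library was made by patch-RNAseq, in which the cytosol of 1 granule cell, a principal neuron of the dentate gyrus, is drawn into a patch pipette and sequenced.

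The groups used were Id2_OE and GFP_Control. Id2_OE cells received an adeno-associated virus (AAV) for Id2 overexpression 1 month earlier. GFP_Control gave 59 passing cells with counts, 1 month after an AAV for GFP. Ifit1 was also looked up in a second experiment without virus, with kainic acid, a seizure-provoking glutamate receptor agonist, injected into the hippocampus. Strain, age, the promoter of the viruses and the animal of each cell are not given in the labels. Cells are therefore not replicates, each side stands for 1 sample, and no difference below was tested. The sides were set by Ifit1 in the same cells, so every contrast between them is a description.

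Interferons bind receptors on the cell surface and act through the kinases Jak1 and Tyk2 and transcription factors of the STAT family, among them Stat2. With Irf9, these form a complex that binds the interferon-stimulated response element (ISRE) in the promoters of antiviral genes, among them Ifit1, whose protein binds viral RNA that lacks host cap methylation. Signals from interferon gamma run through STAT pairs that bind a gamma-activated site (GAS), as in the promoter of Irf1.

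Ifit1 had few intermediate values in the Id2 cells. Ifit1-high cells ranged from 15.7 to 5258 CPM with a median of 957 CPM, and Ifit1-low cells from 0 to 0.573 CPM with a median of 0 CPM. The lowest Ifit1-high cells held 15.7, 52.4 and 267 CPM, the 3 cells between the limits 1.66, 3.17 and 7.40 CPM, and 30 of the 40 Ifit1-low cells had no read. The share of cells at 10 CPM or more was 39.4% with Id2 (exact Clopper-Pearson interval 28.03% to 51.7%) and 0 of 59 with GFP, which allows a share of up to 5.08% by a limit of 3 cells and of 6.06% by the exact interval. Without virus, 1 of 31 cells from non-injected mice reached 10 CPM, 0 of 58 cells 1 day after kainate (up to 5.17% by 3 cells, 6.16% by the exact interval) and 9 of 29 cells 14 days after kainate.

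**Figure D1:**
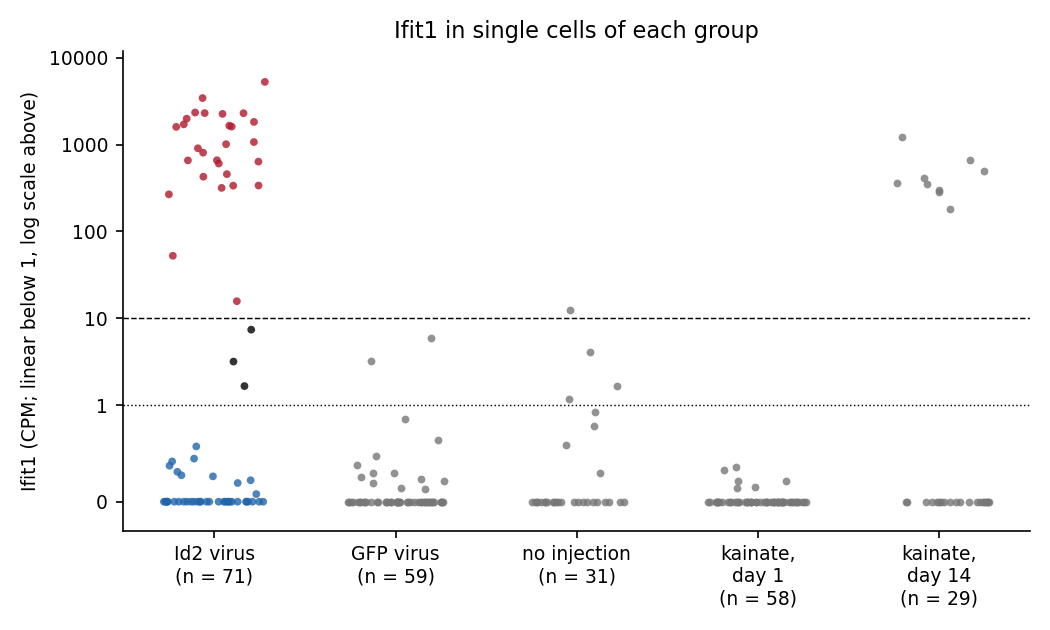
Ifit1 in single cells (CPM, linear below 1 and logarithmic above), 1 point a cell, for Id2, GFP, non-injected and kainate cells. Id2 cells are red at 10 CPM or more (dashed line), blue below 1 CPM (dotted line) and black between. The 28 red cells span 15.7 to 5258 CPM, while no GFP cell reaches 10 CPM.

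Ifit1-high cells were spread unevenly over the title numbers of the libraries, whose meaning is not given in the labels. In titles to 95, 16 of 43 Id2 cells were Ifit1-high (37.2%), and in the later titles 12 of 28 (42.9%). Within runs of 10 title numbers, the Ifit1-high side had 5 of 6 cells from 120 to 129 and 6 of 8 from 50 to 59, against 0 of 6 from 150 to 159 and 0 of 4 from 20 to 29. What a run stands for is not labelled, and its part in the results below was not tested. Values within the title sets are given beside the first of them.

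Promoter letters were read for Ifit1 and for 5 genes described below. The windows are RefSeq sequence of build GRCm38.p6, from 250 bases before to 50 bases after the start of each gene, printed 5′ to 3′ on the gene's strand. Capitals mark matches to the ISRE core, spelled GAAA, any 2 bases and GAAA, on either strand (read as TTTC, any 2 bases and TTTC where the match is on the opposite strand), and in the Irf1 window a match to TTCNNNGAA, a spelling of the GAS. They lie at chr19:34640639-34640938 (Ifit1, plus strand), chr4:156200769-156201068 (Isg15, minus), chr12:26456403-26456702 (Rsad2, minus), chr2:122147437-122147736 (B2m, plus), chr10:128270248-128270547 (Stat2, plus) and chr11:53769764-53770063 (Irf1, plus, 1 of 2 windows).
Ifit1: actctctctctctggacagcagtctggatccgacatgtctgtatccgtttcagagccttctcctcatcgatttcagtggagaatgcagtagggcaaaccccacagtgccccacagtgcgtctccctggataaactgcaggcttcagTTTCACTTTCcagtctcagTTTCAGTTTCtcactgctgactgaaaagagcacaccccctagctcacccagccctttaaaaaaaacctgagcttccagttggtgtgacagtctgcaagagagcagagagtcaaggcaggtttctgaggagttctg
Isg15: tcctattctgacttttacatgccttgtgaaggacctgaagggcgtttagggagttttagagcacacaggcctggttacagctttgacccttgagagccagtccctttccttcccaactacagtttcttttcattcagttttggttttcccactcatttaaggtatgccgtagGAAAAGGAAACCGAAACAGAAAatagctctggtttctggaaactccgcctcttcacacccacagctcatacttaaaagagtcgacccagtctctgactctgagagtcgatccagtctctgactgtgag
Rsad2: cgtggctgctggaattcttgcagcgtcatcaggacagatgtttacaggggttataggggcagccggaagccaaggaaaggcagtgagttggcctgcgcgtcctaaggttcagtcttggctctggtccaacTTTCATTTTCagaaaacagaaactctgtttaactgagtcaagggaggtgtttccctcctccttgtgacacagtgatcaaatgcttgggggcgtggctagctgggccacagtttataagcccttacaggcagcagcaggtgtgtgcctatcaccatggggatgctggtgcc
B2m: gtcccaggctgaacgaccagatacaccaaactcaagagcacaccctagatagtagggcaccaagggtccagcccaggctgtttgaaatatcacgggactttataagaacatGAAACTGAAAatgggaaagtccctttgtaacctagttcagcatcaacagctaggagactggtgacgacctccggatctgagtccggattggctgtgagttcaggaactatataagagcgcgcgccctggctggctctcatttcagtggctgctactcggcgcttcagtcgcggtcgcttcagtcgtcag
Stat2: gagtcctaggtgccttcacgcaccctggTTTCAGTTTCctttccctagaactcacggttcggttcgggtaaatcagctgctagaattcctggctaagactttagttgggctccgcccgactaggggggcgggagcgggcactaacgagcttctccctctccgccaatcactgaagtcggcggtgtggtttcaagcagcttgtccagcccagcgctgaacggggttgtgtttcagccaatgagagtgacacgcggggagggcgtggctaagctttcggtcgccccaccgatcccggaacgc
Irf1: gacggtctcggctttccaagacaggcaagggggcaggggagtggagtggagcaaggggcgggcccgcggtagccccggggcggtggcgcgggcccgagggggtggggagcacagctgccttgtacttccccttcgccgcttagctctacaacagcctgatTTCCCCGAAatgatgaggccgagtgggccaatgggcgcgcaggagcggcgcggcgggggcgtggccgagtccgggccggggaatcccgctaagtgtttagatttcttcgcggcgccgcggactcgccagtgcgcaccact
Ifit1 holds 2 matches, the nearer beginning 85 bases before its start, and Isg15 holds 3, each of which overlaps its neighbour. An ISRE match is present in 1079 of 27025 genes with a window (3.99%), and a GAS match in 9.55%. A match is a description of these letters and does not show that a factor was bound.

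The 2 sides differed in how many genes were read. Median reads per cell were 3650362 in Ifit1-high, 2859172 in Ifit1-low and 3957794 in GFP cells. Median genes detected were 4252 in Ifit1-high (2034 to 7450), 3266.5 in Ifit1-low (1962 to 5139) and 4105 in GFP cells. With each cell thinned at random to 750000 reads they were 3754, 2916 and 3746, the last over the 55 GFP cells with that many reads. Ifit1-high cells were thus close to GFP cells in genes detected, and Ifit1-low cells held fewer. The granule cell markers Prox1 and Calb1 were present on both sides and did not pass the limit used below. Prox1, the fate-setting factor of granule cells, stood at 215 CPM in Ifit1-high cells, 308 CPM in Ifit1-low cells and 296 CPM in GFP cells, and Calb1, a calcium-binding protein, at 1100, 1154 and 1117 CPM.

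Levels below are CPM of the reads summed over the cells of a side, and a ratio is the log2 of Ifit1-high over Ifit1-low after adding 1 CPM. A gene counts as higher or lower past a ratio of 1 or -1. Of 8157 measured genes, with a read in at least 20% of the cells of a side and 5 CPM or more, 1921 were higher (23.6%) and 1159 lower (14.2%) in Ifit1-high cells. With scaling by the median of ratios, which lowers each ratio by 0.18, 1590 were higher and 1450 lower, and the share of calls that were higher was 52.3%, against 62.4% with total reads. A stricter count asks that the summed ratio, the difference of the means over cells of log2(CPM + 1) and the ratio after thinning all pass: 922 genes were higher by all 3 (11.3%) and 94 lower (1.15%). The median of all measured genes was 0.18 by summed reads, 0.65 by means over cells and 0.087 after thinning, and 81% of the genes were read in a larger share of Ifit1-high cells. By means over cells alone, 95.7% of the genes past the limit were higher.

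Measured interferon effector genes were mostly higher in Ifit1-high cells. The list joins antiviral effectors, enzymes of ubiquitin, ISG15 and ADP-ribose transfer, and GTPases that interferon induces. Of 95 listed, Ifit1 not among them, 36 were measured: 25 were higher (69.4%, against 23.6% of all measured genes) and 3 lower. The median ratio was 2.10 against 0.18 over all measured genes. By all 3 ratios 21 were higher (58.3%, against 11.3%) and 0 lower. The share of cells with a read was at least 20 points larger in Ifit1-high cells for 21 of the 36, against 18.4% of all measured genes. Since genes detected differed between the sides, the list was also read in the 20 Ifit1-high and 16 Ifit1-low cells with at least 3588 genes. There, with the filter applied anew, 27 of 37 measured effectors were higher and 2 lower, with a median of 2.17. Of all genes measured in these cells, 25.5% were higher and 17.4% lower, with a median of 0.12. Within titles to 95 the median was 2.21 (all measured genes 0.25) and within the later titles 2.06 (all measured genes 0.07). In the runs of 10 titles with at least 2 cells of each side, 21 of 35 were higher and 8 lower, with a median of 1.83. Of all genes measured there, 27.5% were higher and 19.5% lower, with a median of 0.17. The filter lets a gene in through either side, so that effectors read almost only in Ifit1-high cells had to be higher there. In at least 20% of Ifit1-low cells, a read was present for 7 of 21 antiviral effectors, 3 of 9 enzymes and 0 of 6 GTPases. With no filter 42 of 86 effectors were higher and 12 lower, with a median of 0.77. Of all genes with a read, 21.7% were higher and 16.8% lower, with a median of 0.013.

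**Figure D2:**
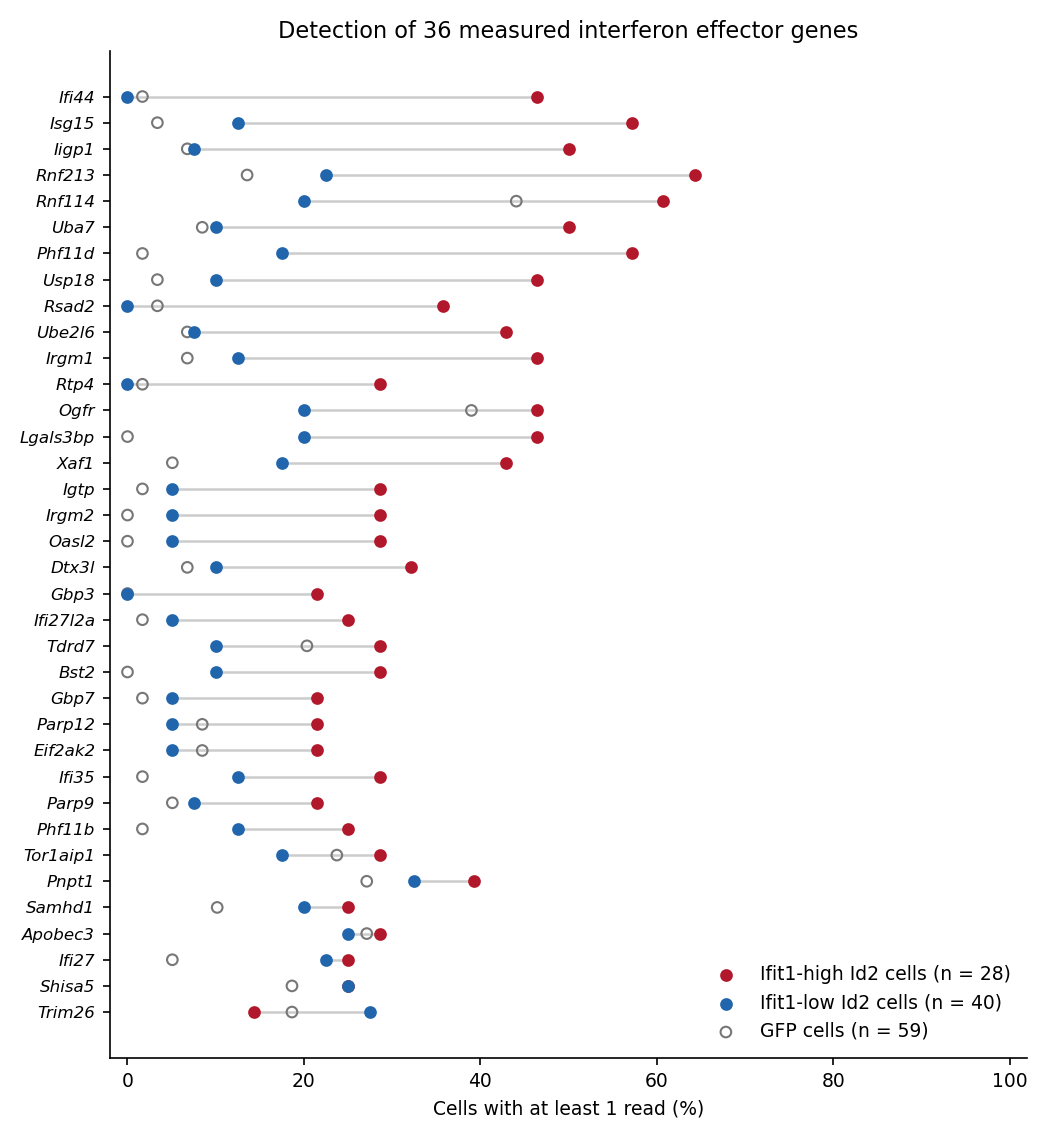
Share of cells with at least 1 read (%) for each of the 36 measured interferon effector genes, in Ifit1-high Id2 cells (red, 28 cells), Ifit1-low Id2 cells (blue, 40 cells) and GFP cells (open, 59 cells), ordered by the difference of red and blue. Ifi44 heads the list with a read in 13 Ifit1-high cells and in no Ifit1-low cell, and Trim26 ends it.

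The effector RNA was spread over several genes per cell. An Ifit1-high cell had 3 to 24 effector genes at 10 CPM or more (median 10.5), an Ifit1-low cell 1 to 11 (median 3) and a GFP cell 0 to 7 (median 2). At least 10 such genes were found in 19 of 28 Ifit1-high cells (67.9%, 47.6% to 84.1%), in 1 of 40 Ifit1-low cells (2.5%, 0.0633% to 13.2%) and in 0 of 59 GFP cells, with the same limits as above. The ranges of the sides overlapped, and after thinning the median number of effector genes read was 12.5, 5 and, over 55 GFP cells, 4. Summed over the list, cells held 391 to 8432 CPM in Ifit1-high (median 3253), 47.8 to 10734 CPM in Ifit1-low (median 995) and 0 to 1922 CPM in GFP cells (median 358).

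**Figure D3:**
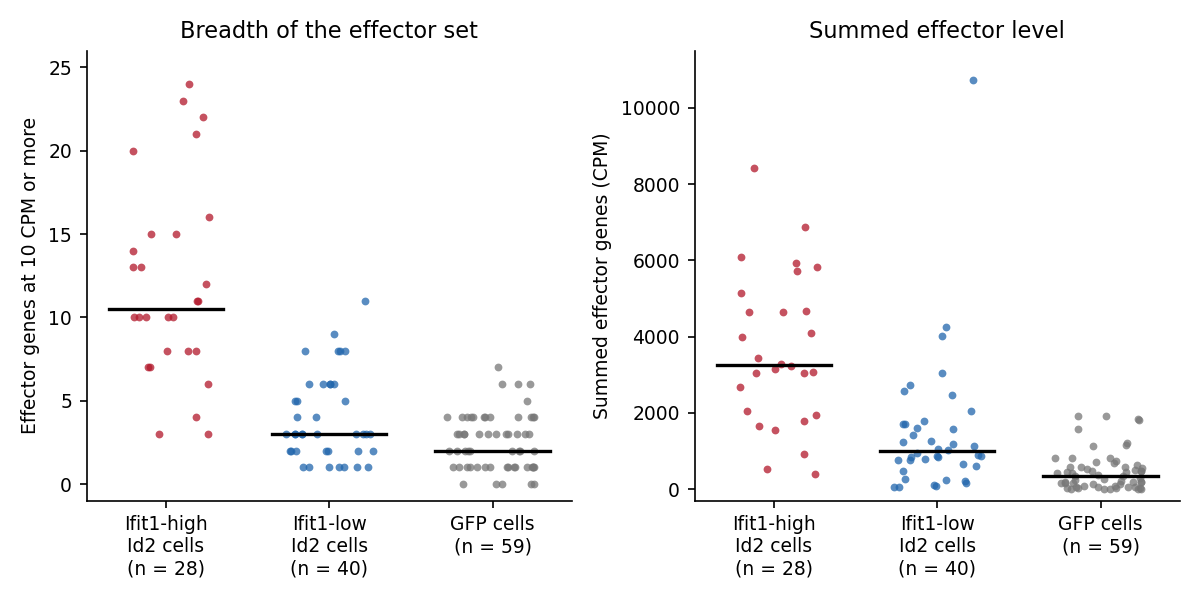
Left, number of interferon effector genes at 10 CPM or more in each cell; right, their summed level (CPM). Points are cells of Ifit1-high Id2 (red), Ifit1-low Id2 (blue) and GFP (grey), and bars are medians (10.5, 3 and 2 genes; 3253, 995 and 358 CPM). The ranges overlap, and 1 Ifit1-low cell has the highest sum.

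Among the antiviral effectors, 11 of 21 measured genes were higher and 2 lower, and with no filter 23 of 50 were higher and 6 lower. Ifi44, an interferon-induced protein that slows cell growth, ranged from 0 to 1390 CPM in Ifit1-high cells with reads in 13 of 28 (46.4%, 27.5% to 66.1%), and had no read in the 40 Ifit1-low cells. Its summed level was 205 CPM (exact Poisson interval 202 to 207) in Ifit1-high cells, and 2.41 CPM in GFP cells. That interval takes each read as an independent count and does not cover the spread over cells. The ratio of Ifi44 after adding 1 CPM, as a log2, was 7.68. No bound on the fold is given, because reads of the same cell are not independent counts. Rsad2, which makes a chain-terminating nucleotide, was at 91.1 CPM in Ifit1-high cells and at 0 reads in Ifit1-low cells, and Rtp4, an inhibitor of viral replication, at 95.7 CPM and 0 reads. No Ifit1-low cell thus had a read of any of these 3 genes, while most Ifit1-high cells had no read of Rsad2 (10 of 28 with a read) or Rtp4 (8 of 28).

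Isg15, a ubiquitin-like protein that is attached to other proteins, ranged from 0 to 120.5 CPM in Ifit1-high cells (median 51.8) and from 0 to 202 CPM in Ifit1-low cells (median 0). It was read in 16 of 28 Ifit1-high cells (57.1%), 5 of 40 Ifit1-low cells (12.5%) and 2 of 59 GFP cells, and stood at 51.3, 4.91 and 0.343 CPM. Phf11d, an interferon-induced gene of the PHD finger family, was read in 16 and 7 cells at 203 and 45.6 CPM, and Bst2, which tethers budding virus to the membrane, in 8 and 4 cells at 97.2 and 10.5 CPM. Xaf1, which promotes cell death, stood at 85.2 CPM in Ifit1-high and 19.7 CPM in Ifit1-low cells. Ifit2 and Ifit3, the closest listed relatives of Ifit1, were read in only 2 of 28 Ifit1-high cells each, at 16.1 and 16.5 CPM, and did not pass the filter for a measured gene.

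Of the enzymes of ubiquitin, ISG15 and ADP-ribose transfer, 8 of 9 measured genes were higher and 1 lower, and 3 of the 9 had a read in at least 20% of the Ifit1-low cells. With no filter, 10 of the 21 with a read were higher and 6 lower, with a median of 0.08. Of all genes with a read 21.7% were higher and 16.8% lower. Usp18, which removes ISG15 and holds back the interferon receptor, ranged from 0 to 929 CPM with reads in 13 of 28 Ifit1-high cells and from 0 to 650 CPM with reads in 4 of 40 Ifit1-low cells, and summed to 178 and 25.1 CPM. Uba7, the activating enzyme for ISG15, stood at 183 CPM in Ifit1-high, 16.2 CPM in Ifit1-low and 0.18 CPM in GFP cells, with 14, 4 and 5 cells read. Ube2l6, the conjugating enzyme of the same chain, was read in 12 of 28 and 3 of 40 cells. Genes for the attachment and for the removal of ISG15 were thus both among those higher. Rnf114 was higher than in Ifit1-low cells (80.9 and 26.1 CPM) and stood at 80.1 CPM in GFP cells, the only 1 of the 21 effectors higher by all 3 ratios whose GFP level was nearer to the Ifit1-high level.

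The GTPases that interferon induces against vacuole-dwelling pathogens were read mostly in Ifit1-high cells. Of 17 listed, 6 were measured, and all 6 entered through the Ifit1-high side alone, so that the filter set their direction. With no filter, 9 of the 15 with a read were higher and 0 lower, with a median of 1.59, against 21.7% and 16.8% of all genes. Irgm1 ranged from 0 to 2074 CPM in Ifit1-high cells and from 0 to 1592 CPM in Ifit1-low cells, was read in 13 of 28 and 5 of 40, and summed to 243 CPM in Ifit1-high, 34.6 CPM in Ifit1-low and 0.0676 CPM in GFP cells. Iigp1 was read in 14 of 28 and 3 of 40 cells, and 1 Ifit1-low cell held 90.2% of the Iigp1 reads of its side. Gbp3 was read in 6 Ifit1-high cells at 39.4 CPM and in no Ifit1-low or GFP cell. Gbp7 stood at 37.5 and 0.497 CPM and Irgm2 at 17.7 and 0.769 CPM. Igtp stood at 52.2 and 16.7 CPM, and its ratio of 1.59 was 5.71 without Ifit1-low replicate 45, 0.35 within titles to 95 and 0.44 in cells with at least 3588 genes.

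The 3 effectors that were lower, Pnpt1, Phf11b and Trim26, each had most of their Ifit1-low reads in 1 cell. Single Ifit1-low cells held 90.7%, 98.1% and 82.2% of the Ifit1-low reads of these genes. With that cell left out the ratio of Pnpt1, a mitochondrial RNA-degrading enzyme, was 2.23, against -1.02 with all cells, and its call ended with any of 22 cells left out. The ratios of Phf11b and Trim26 without that cell were -0.74 and -0.42, within the limit. Apobec3, a cytidine deaminase, was also called on 1 cell: its ratio of 1.68 was 0.71 without Ifit1-high replicate 41.

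Over the effectors that were higher, an ISRE match stood in the promoter of 9 of 20 genes with a window (45%), among them Isg15, Rsad2, Bst2, Gbp3, Irgm1 and Igtp. Over all listed effectors, whether or not measured, it stood in 41 of 72 (56.9%). Of the 3 lower effectors, 2 had a match.

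Of the receptors and JAK-STAT genes, 5 of 16 measured members were higher by all 3 ratios: Stat2, Stat3, Irf1, Irf9 and Socs1. That is 31.25%, against 11.3% of all measured genes. By summed reads the same 5 of 16 were higher (31.25%, against 23.6% of all measured genes) and 3 of 16 lower (against 14.2%). The list median was 0.24, against 0.18 over all measured genes. Irf9, the DNA-binding partner of Stat2, ranged from 0 to 1525 CPM in Ifit1-high cells (median 196) and from 0 to 1169 CPM in Ifit1-low cells (median 0), with reads in 23 of 28, 14 of 40 and, in GFP cells, 14 of 59. Stat2 was read in 20, 11 and 15 cells, and its summed level was 289 CPM in Ifit1-high, 29.6 CPM in Ifit1-low and 29.4 CPM in GFP cells. For Stat2 the Ifit1-low cells were at the GFP level, while Irf9 summed to 321 CPM in Ifit1-high, 81.3 CPM in Ifit1-low and 18.5 CPM in GFP cells. Irf1, a factor induced through the GAS, stood at 324 CPM in Ifit1-high, 48.6 CPM in Ifit1-low and 0.284 CPM in GFP cells, and Socs1, a feedback inhibitor of the Jak kinases, at 24.1, 3.04 and 0.00451 CPM.

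The receptor chains and kinases were not among the genes higher by all 3 ratios. Jak1 stood at 155.5 CPM in Ifit1-high, 218 CPM in Ifit1-low and 159 CPM in GFP cells. Tyk2, Ifngr2 and Irf2 were lower by summed reads, and in each the call ended with 1 Ifit1-low cell left out, at ratios of -0.72, 0.76 and 0.82. The Ifngr2 call, at -1.02, ended with any of 24 cells left out. No interferon gene was seen in Ifit1-high cells: all 21 listed interferons, types 1, 2 and 3, had 0 reads there, and the list summed to 0.0136 CPM in Ifit1-low and 0.316 CPM in GFP cells.

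Among 11 measured sensors of nucleic acids and factors of interferon induction, 5 were higher and 2, Rnaseh2a and Rnaseh2c, lower (median 0.18, as over all measured genes), and 3 were higher by all 3 ratios (27.3%, against 11.3% of all measured genes). The list summed to 862 CPM in Ifit1-high and 921 CPM in Ifit1-low cells. Rnaseh2a, a subunit of the RNase that clears RNA from DNA, stood at 44.4 CPM in Ifit1-high, 282 CPM in Ifit1-low and 62.97 CPM in GFP cells, with a ratio of -2.64, and of -1.22 without Ifit1-low replicate 15. Irf7, the factor that amplifies interferon transcription, ranged from 0 to 1514 CPM in Ifit1-high cells (median 88.4) and from 0 to 1662 CPM in Ifit1-low cells (median 0), was read in 20 of 28 and 8 of 40 cells, and summed to 179, 57.8 and, in GFP cells, 0.243 CPM. Ddx58, the cytosolic RNA sensor RIG-I, stood at 38.4 CPM in Ifit1-high, 3.70 CPM in Ifit1-low and 2.38 CPM in GFP cells. Its relative Ifih1 was read in 6 and 1 cells, and its ratio of 4.13 was 1.22 without Ifit1-high replicate 59 and 0.76 within titles to 95. Traf6, a signalling adaptor, stood at 21.1 CPM in Ifit1-high, 0.279 CPM in Ifit1-low and 48.8 CPM in GFP cells. Irf3 was higher by summed reads (58.8 and 22.8 CPM) and not after thinning, and its ratio was -0.09 without Ifit1-high replicate 10.

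B2m, the light chain of class I antigen-presenting molecules, had the profile over cells most like that of Ifit1, with a Pearson r of 0.68 between log2(CPM + 1) values over the 71 Id2 cells among 6568 genes ranked. It ranged from 0 to 1587 CPM in Ifit1-high cells (median 323) and from 0 to 748 CPM in Ifit1-low cells (median 0). Reads were present in 25 of 28 Ifit1-high cells (89.3%, 71.8% to 97.7%), 12 of 40 Ifit1-low cells (30%) and 19 of 59 GFP cells, with summed levels of 351, 66.6 and 41.04 CPM. Within the 28 Ifit1-high cells r was 0.41.

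The other class I genes were mixed. Of 11 measured members, 4 were higher (36.4%, against 23.6% of all measured genes) and 3 lower, with a median of 0.65. By all 3 ratios B2m and the proteasome activator Psme2 were higher (18.2%, against 11.3%). H2-K1, a class I heavy chain, stood at 61.1 CPM in Ifit1-high, 257 CPM in Ifit1-low and 0.00902 CPM in GFP cells. It was read in 7 of 28 and 8 of 40 cells, and Ifit1-low replicate 15 held 67.6% of the Ifit1-low reads, without which its ratio was -0.54 against -2.06. H2-T22 was read in 14 of 28 and 8 of 40 cells, and its ratio of -1.36 was 0.92 without Ifit1-low replicate 42. Psme2 was called at 1.05, and the call ended with any of 11 cells left out. No class II gene was measured.

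Cd274, the checkpoint ligand PD-L1, was among the highest genes of the whole comparison. It ranged from 0 to 2933 CPM in Ifit1-high cells and from 0 to 873 CPM in Ifit1-low cells, was read in 13 of 28, 5 of 40 and, in GFP cells, 1 of 59, and summed to 243, 22.3 and 3.76 CPM. Of the chemokines and cytokines, 2 of 8 measured were higher (25%, near the 23.6% of all measured genes) and 1 lower, with a median of -0.69. Ccl2, which attracts monocytes, was read in 8 of 28 Ifit1-high cells at 50.2 CPM and in no Ifit1-low or GFP cell. Its ratio was 5.68, and 2.94 with failing cells added to both sides. The growth factor Csf1 stood at 60.4, 18.7 and, in GFP cells, 15.7 CPM.

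Ifit1-low Id2 cells were not at the GFP level for all interferon genes. Of the 21 effectors higher by all 3 ratios, 16 were lower in GFP cells than in either Id2 side (76.2%), against 2128 of all 8157 measured genes (26.1%) and 11.2% of the 922 higher by all 3 ratios. At least 5 effector genes at 10 CPM were held by 25 of 28 Ifit1-high cells (89.3%), 14 of 40 Ifit1-low cells (35%) and 5 of 59 GFP cells (8.47%). Of the 40 Ifit1-low cells, 3 reached the median effector sum of the Ifit1-high cells. The highest was Ifit1-low replicate 83, with 10734 CPM from 11 effector genes at 10 CPM or more and no read of Ifit1, against 4262 CPM in the next Ifit1-low cell. It held Shisa5 at 2572 CPM, Pml, a nuclear body protein, at 2127 CPM, Iigp1 at 1813 CPM and Eif2ak2, the kinase PKR, at 1560 CPM. Without this cell 26 effectors were higher and 3 lower, with a median of 2.28, against 0.19 over all measured genes.

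Id2 itself stood lower in Ifit1-high cells, short of the limit. Ifit1-high cells ranged from 2413 to 66412 CPM of Id2 (median 20415) and Ifit1-low cells from 1446 to 105869 CPM (median 38409), while GFP cells had a median of 0.17 CPM and a highest value of 575 CPM. The ranges overlapped over most of their length. Summed reads gave 27907 and 44556 CPM, a ratio of -0.68. Ordered by Id2 and divided into 3 bins, the lowest and the middle bin of the 71 cells each had 12 of 24 Ifit1-high cells (50%), and the highest bin 4 of 23 (17.4%, 4.95% to 38.8%). All 6 cells of titles 150 to 159, none of them Ifit1-high, fell in the highest bin, which without them had 4 of 17 (23.5%, 6.81% to 49.9%; chosen after seeing the data), and the part of the title run was not tested. Over the 71 cells Id2 and Ifit1 had a Pearson r of -0.23 and a Spearman rho of -0.30 on the log2 scale, and within the 28 Ifit1-high cells 0.35 and 0.19. Both values share the library total of a cell. The labels give no measure of virus taken up by a cell.

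**Figure D4:**
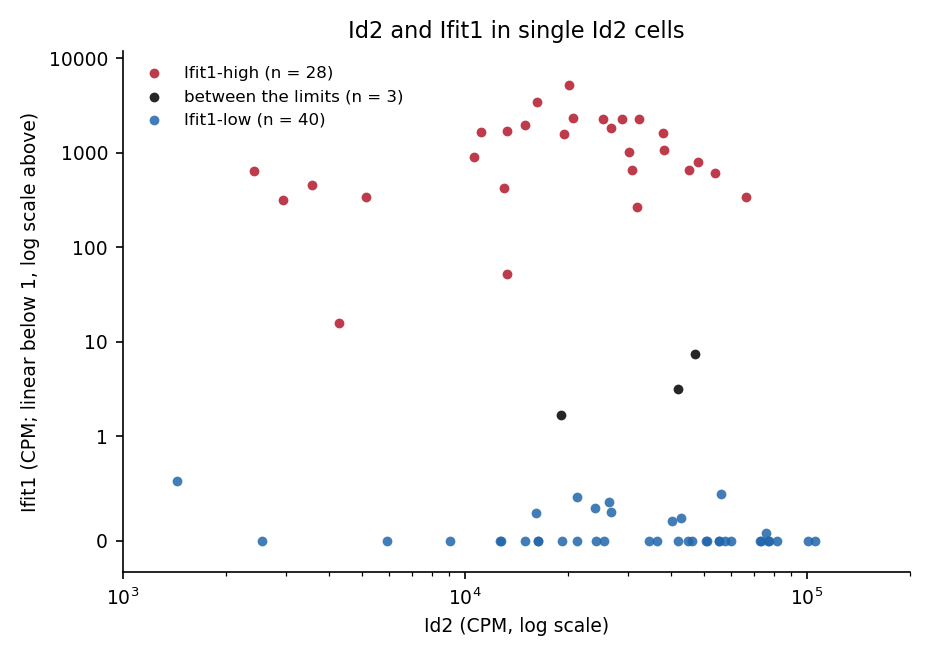
Id2 (CPM, log scale) against Ifit1 (CPM, linear below 1 and logarithmic above) in the 71 Id2 cells, 1 point a cell, red for Ifit1-high, black between the limits and blue for Ifit1-low. The red cells span 2413 to 66412 CPM of Id2 and the blue cells 1446 to 105869 CPM.

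After B2m, the genes most like Ifit1 over the 71 cells were Irf9 (r = 0.55), Taf13 (0.55), Isg15 (0.52), Ddx27 (0.51), Irf7 (0.50), Slit1 (0.46), Zfp191 (0.46), Sik2 (0.46) and Ackr3 (0.46). These values include the difference between the sides. Within the 28 Ifit1-high cells r was 0.51 for Irf9, 0.49 for Taf13, 0.12 for Isg15, 0.22 for Ddx27, 0.20 for Irf7, 0.29 for Slit1, 0.30 for Zfp191, 0.07 for Sik2 and 0.24 for Ackr3. Of the 10, B2m, Irf9, Isg15 and Irf7 are on the interferon lists. Ackr3, an atypical receptor that scavenges Cxcl12, stood at 100.3 CPM with reads in 13 of 28 Ifit1-high cells, against 4.42 CPM with reads in 4 of 40 Ifit1-low cells and 1.58 CPM in GFP cells. Taf13, a subunit of the general factor TFIID, stood at 45.4 and 2.52 CPM, and at 35.3 CPM in GFP cells. These likenesses share the library total and the number of genes detected, which itself had a Pearson r of 0.42 with Ifit1.

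The 12 highest genes by the smallest of the 3 ratios were Ifi44, Stat2, Cd274, Sh3gl3, Zfp191, Uba7, Tmem230, Slit1, Usp18, Wdr45, Irf1 and Ddx27. In 5 of them, Zfp191, Tmem230, Slit1, Wdr45 and Ddx27, the GFP level was nearer to the Ifit1-high level. Slit1, a secreted axon guidance cue, ranged from 0 to 1172 CPM in Ifit1-high cells (median 9.32) and from 0 to 221 CPM in Ifit1-low cells (median 0). It summed to 160 CPM in Ifit1-high cells and 15.7 CPM in Ifit1-low cells, against 401 CPM in GFP cells, so that both sides were below GFP cells and the Ifit1-low cells by more. Wdr45, a protein of autophagosome formation, stood at 115.4, 15.1 and, in GFP cells, 83.4 CPM, and Zfp191, a zinc finger factor, at 157.5, 14.0 and 95.5 CPM. Sh3gl3, an endophilin of vesicle endocytosis, stood at 221, 26.6 and 75.9 CPM. Cd274, Uba7, Usp18, Irf1 and Ifi44 by contrast were at 0.18 to 3.76 CPM in GFP cells.

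Interferon effectors and the other genes differed in where GFP cells stood, which was not tested. Of the 922 genes higher by all 3 ratios, 600 (65.1%) had a GFP level nearer to the Ifit1-high than to the Ifit1-low cells on the log2(CPM + 1) scale, against 56.2% of all measured genes. Of the 21 effectors higher by all 3 ratios the count was 1. Promoters of the 12 highest genes held an ISRE match in 1 of 9 with a window, Stat2.

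The 12 lowest genes were Rnf40, Mmaa, Vti1b, Fam126b, Pdcd4, Actr3b, Zcchc12, Gps1, Slmo1, Tmub2, Myo18a and Pcdh20, and none is on an interferon list. Rnf40, a ubiquitin ligase for histone H2B, ranged from 0 to 800 CPM in Ifit1-high cells (median 0) and from 0 to 1604 CPM in Ifit1-low cells (median 1.65), and summed to 39.4, 274 and, in GFP cells, 31.02 CPM. Vti1b, a SNARE protein of endosomes, was read in 13 of 28 and 25 of 40 cells at 143 and 582 CPM, with 201 CPM in GFP cells. Pdcd4, an inhibitor of translation initiation, stood at 16.7 CPM in Ifit1-high cells, 136 CPM in Ifit1-low cells and 142 CPM in GFP cells, and Pcdh20, a protocadherin, at 75.02, 358 and 315 CPM. The GFP level was nearer to the Ifit1-high cells in 5 of the 12, Rnf40, Vti1b, Fam126b, Actr3b and Zcchc12, and nearer to the Ifit1-low cells in 7.

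**Figure D5:**
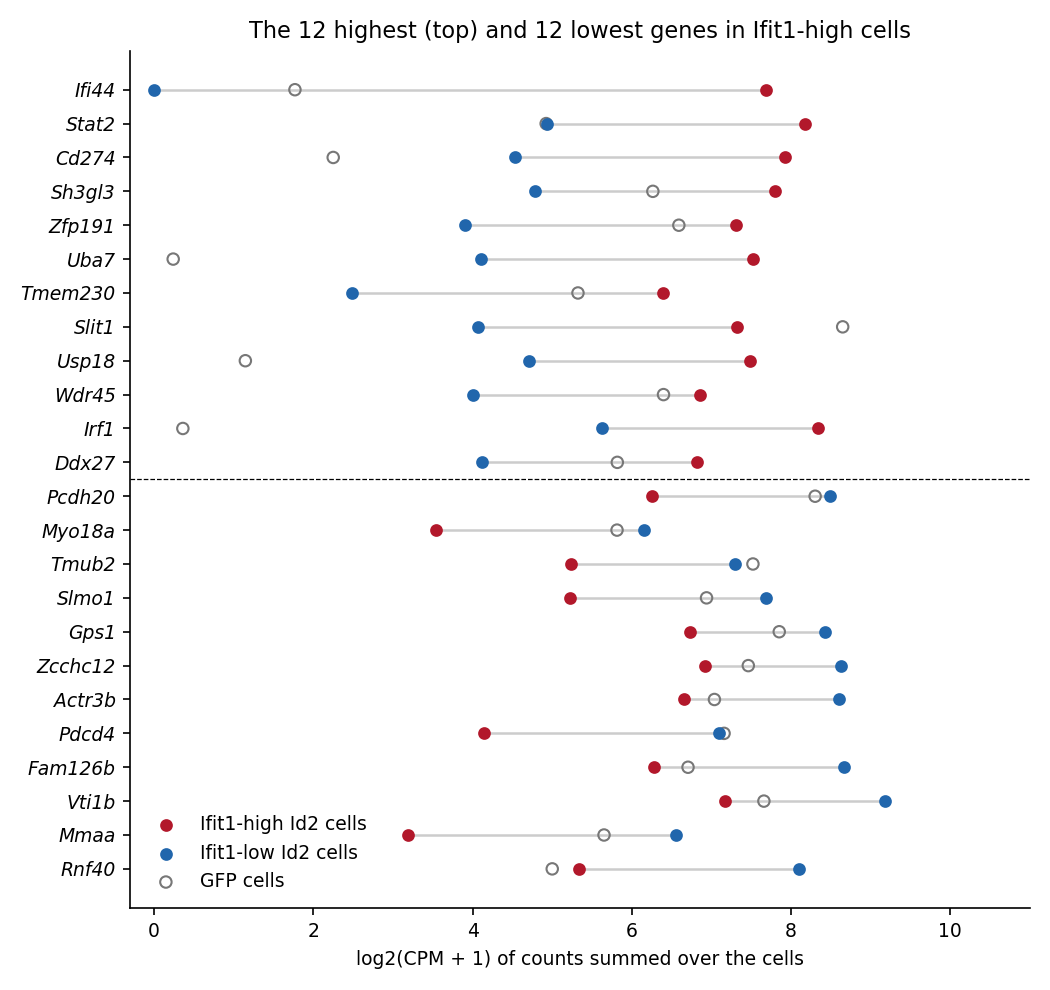
Summed level as log2(CPM + 1) of the 12 highest genes (above the dashed line) and the 12 lowest genes (below) in Ifit1-high Id2 cells (red), Ifit1-low Id2 cells (blue) and GFP cells (open). For Slit1 the GFP value is the highest of the 3, and for Uba7, Usp18 and Irf1 the lowest.

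Lists of granule cell markers, transmitter receptors, vesicle release and the respiratory chain held few genes past the limit. Ion channels are described under the other observations. Of 24 measured granule cell markers 1 was higher and 1 lower (median 0.17), and of 16 glutamate receptor genes 1 and 1 (median 0.00). Of 11 GABA receptor genes 0 were higher and 2 lower (median -0.34), and of 31 genes of vesicle release 1 and 1 (median 0.12). Of 73 nuclear genes of the respiratory chain 2 were higher and 4 lower (median -0.13). Over all measured genes 23.6% were higher and 14.2% lower, with a median of 0.18. By all 3 ratios, the respiratory gene Ndufs8 alone among these lists was higher and none was lower, against 11.3% and 1.15% of all measured genes. The Ndufs8 call ended with either of 2 cells left out.

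Of 35 measured activity-regulated genes, 6 were higher (17.1%, against 23.6% of all measured genes) and 4 lower, with a median of 0.37. By all 3 ratios Fos, Nr4a2 and Ier2 were higher (8.57%, against 11.3%) and 0 lower, and within the later titles the ratio of Fos was 0.67 and that of Nr4a2 -1.34. Fos, an immediate early transcription factor, ranged from 330 to 9660 CPM in Ifit1-high cells (median 2868) and from 0 to 9168 CPM in Ifit1-low cells (median 1133), and was read in 28 of 28 and 35 of 40 cells. Its summed level was 3303 CPM in Ifit1-high, 1398 CPM in Ifit1-low and 3515 CPM in GFP cells. For Fos the Ifit1-high cells were near the GFP level and the Ifit1-low cells below it. Egr1, another immediate early factor, stood at 3503, 2709 and 2776 CPM.

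Markers of other cell types were read on both sides, and the microglia list summed to 545 CPM in Ifit1-high, 732 CPM in Ifit1-low and 206 CPM in GFP cells. Of 20 microglia markers 8 were measured, 2 higher and 2 lower (median -0.47), and C1qb alone was higher by all 3 ratios, with a ratio of -0.97 within the later titles. Their sum per cell was 0 to 10590 CPM in Ifit1-high cells (median 196), 0 to 4857 CPM in Ifit1-low cells (median 124.4) and 0 to 10529 CPM in GFP cells (median 3.64). P2ry12, Fcrls and Siglech had no read in Ifit1-high cells. The 4 Ifit1-high cells with under 1 CPM of these markers held 267 to 1707 CPM of Ifit1 (median 620). Their effector RNA was 517 to 6103 CPM (median 4637), and the 5 Ifit1-high cells under 10 CPM had an effector median of 3434 CPM. The 5 Ifit1-high cells at 1000 CPM or more had medians of 1596 CPM of Ifit1 and 3272 CPM of effector RNA. In Ifit1-low cells the effector median was 834 CPM in the 11 under 1 CPM and 1183 CPM in the 5 at 1000 CPM or more. With the 5 cells of each side at 1000 CPM or more left out, 24 of 35 measured effectors were higher and 2 lower. The effector median ratio was then 1.89. The part of the microglia markers in these values was not tested. Markers of T and NK cells summed to 18.4 CPM in Ifit1-high and 44.9 CPM in Ifit1-low cells and those of monocytes and macrophages to 38.4 and 80.997 CPM, with none measured. Of 8 measured astrocyte markers the bicarbonate transporter Slc4a4 was higher and the glutamate transporter Slc1a3 lower by all 3 ratios.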

How the data were processed

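Libraries came, per the labels' protocols, from granule cell cytosol taken up by patch pipette and were built with Nextera XT. Trimmomatic, STAR, featureCounts and GRCm38 are named, without versions, in the submitters' processing notes. Strand setting, treatment of reads that match several genes and the basis of the quality control labels are not stated there. As deposited, counts are whole reads per gene (22800 genes, 291 columns of 304 labelled samples). The remaining 13 samples have no column of counts and were not used here. Passing Id2 and GFP cells are among them. A scaled signal, also deposited by the authors for 252 cells, equals the counts times 1 factor for each cell (0.187 to 287) and served as an alternative. Names of the tables point the other way, so units were settled from the values.

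CPM was a count over its column total, times 1000000. Cells were divided at 10 and 1 CPM of Ifit1, which was left out of every list and count, and reads were then added up over the cells of a side. Passing Id2 cells ranged from 780899 to 12639081 reads. Exact Poisson intervals of sums and exact Clopper-Pearson intervals of shares, both at 95%, cover counting error only, as no molecular identifiers are named in the labels. Thinning drew 750000 reads from each cell with at least that many, the deepest of 5 depths tried at which 90% of both sides remained. A measured gene had a read in at least 20% and at least 3 cells of 1 side, and 5 CPM or more on 1 side. No test was made, because no label names an animal. No 2 of the 71 Id2 columns were identical, and the highest correlation between 2 cells was 0.56.

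The 12 highest and 12 lowest genes were taken by the smallest in size of 3 ratios of 1 sign (summed reads, means over cells of log2(CPM + 1), thinned reads), with a read in at least 40% of the cells of the higher side and 1 sign in both title sets. Genes with predicted, Riken or pseudogene names and mitochondrial or ribosomal protein genes could not be named. Genes past the fold, or up to 4 members by the same ratio, were taken from the lists. A few genes that qualified are not reported here. Fos, Slit1 and genes that rest on single cells were singled out after their values were seen. The members and the 33 gene lists were chosen with earlier results of these data known, so no list is independent evidence of its direction. The computation was tested on simulated data. Promoters came from RefSeq (GRCm38.p6), with 32851 windows of 300 bases for 27025 genes, matched by symbol. Python 3.11.15, numpy 2.4.6, pandas 2.3.3, scipy 1.17.1 and matplotlib 3.10.9 were used.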

Additional observations from a re-analysis of the deposited data

Results flagged for a closer look

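A signal of the split gene was also present in Id2 cells labelled as failing quality control, which no comparison above uses. Of 16 such cells with counts, 2 had Ifit1 at 10 CPM or more (12.5%, exact Clopper-Pearson interval 1.55% to 38.3%). Among failing GFP cells with counts it was 0 of 7. Failing replicate 39 held 5101 CPM of Ifit1 with 1555 genes detected, and failing replicate 61 held 831 CPM with 1761 genes. Each had 6 interferon effector genes at 10 CPM or more. With failing cells added to both sides the effector median was 1.67, with 24 of 39 measured effectors higher and 4 lower.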

How the results depend on the processing

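The counts of genes higher and lower, the effector median and 93 named genes were recomputed under 19 alternatives. Of the alternatives 15 were planned and 4 chosen after seeing the data. Those 4 were title runs with at least 2 cells of each side, cells with at least 3588 genes, no cell over 5% mitochondrial reads, and no Ifit1-low replicate 83. The effector median stayed between 1.67 and 2.28, except 1.29 as a difference of means over cells and 0.77 with no filter on low values. The median of all genes was 0.65 and 0.013 in these 2 settings. Less the median of all genes, the effector median was 0.63 by means over cells and 0.75 with no filter, against 1.91 in the main comparison. Genes higher numbered 1394 to 2682 (18.5% to 32.9% of those measured), except 3828 of 17622 with no filter (21.7%). Genes lower were 1.48% of those measured by means over cells, 1915 (23.8%) within the later title set and 2968 (16.8%) with no filter, against 1159 (14.2%). Ackr3 and Taf13 were not among the recomputed genes. Of the 92 recomputed genes past the fold, 74 kept 1 sign in every alternative and 45 also stayed past the fold. Among the 45 were Ifi44, B2m, Isg15, Irf9, Stat2, Irf1, Usp18, Uba7, Irgm1, Rsad2, Rtp4, Gbp3, Cd274, Ccl2 and Slit1. With each cell left out in turn, also chosen after seeing the data, 75 of the 92 stayed past the fold, the call ended for 17, and the sign changed for 6.

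The following ratios changed sign, and the cause was not tested. By means over cells, Psmb10 was 0.14, Il18 0.50, H2-K1 0.57, Irf2 0.63, Pnpt1 0.83, Ifngr2 1.01 and H2-T22 1.78. After thinning, Irf3 was -0.54 and Pnpt1 0.59, and with the authors' scaled values Irf3 was -0.64 and Pnpt1 0.15. Within the later title set, Apobec3 was -2.53, Nr4a2 -1.34, C1qb -0.97, Csf1 -0.19, Irf2 0.24, Rnaseh2a 0.83, Psmb10 2.06, Ifngr2 3.12 and Pnpt1 3.74. Within titles to 95, Rnf213 was -0.99 and Trim26 0.0022. In title runs with at least 2 cells of each side, Ifngr2 was 0.50, Irf2 1.25, Il18 1.86 and Pnpt1 4.27. In cells with at least 3588 genes, Psme2 was -0.70, Ndufs8 -0.20, Phf11b 0.42, Psmb10 0.47, Il18 0.76 and Pnpt1 1.16. Without cells at 1000 CPM or more of microglia markers, Phf11b was 0.32 and H2-T22 1.44, and without cells over 5% mitochondrial reads H2-T22 was 0.98. With the 10% of cells with most reads taken off each side, Irf3 was -0.34, Ifngr2 0.32, Il18 0.47, H2-K1 0.97 and Pnpt1 2.15.

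No paired analysis was possible because the 2 sides are cells of 1 group, numbered by accession order. Each side stands for 1 sample, so intervals cover counting error and not the spread between animals. A cell without a read of a gene is not shown to lack its RNA, since single cells were read to different depths.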

Other observations

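Genes of p53 signalling and DNA damage had 6 of 15 measured members higher in Ifit1-high cells (40%, against 23.6% of all measured genes). Lower were 3, Ccng1, Ddb2 and Atr, against 14.2% of all measured genes. The median was 0.65, against 0.18 over all measured genes. By all 3 ratios 3 were higher (20%, against 11.3%) and 0 lower. Those higher by all 3 ratios were Trp53 itself, at 62.5 CPM in Ifit1-high, 12.8 CPM in Ifit1-low and 25.3 CPM in GFP cells, the cell cycle inhibitor Cdkn1a, at 111.8, 41.6 and 3.59 CPM, and the nuclease Aen, at 93.4, 5.88 and 26.9 CPM. Of 8 measured genes of a separate cell death list, Bbc3 alone was higher (12.5%, against 23.6% of all measured genes). Bad and Daxx were lower, and the list median was -0.41. Bbc3, the death-promoting protein Puma, stood at 30.1 CPM in Ifit1-high cells with reads in 9 of 28. In Ifit1-low cells it stood at 0.354 CPM with reads in 4 of 40, and in GFP cells at 11.8 CPM. Of the NF-kB list 3 of 6 measured genes were higher (50%, against 23.6% of all measured genes) and 0 lower. Nfkbia, the inhibitor that NF-kB itself induces, stood at 52.1, 11.97 and, in GFP cells, 37.02 CPM.

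Among 45 measured ion channel genes, 7 were higher (15.6%, against 23.6% of all measured genes) and 8 lower, with a median of 0.09. By all 3 ratios 3 were higher (6.67%, against 11.3%), Kcnc1 and Cacnb4 among them, and 1, Kcnh3, was lower. The ratio of Cacnb4, 2.00 with all cells, was 0.61 in cells with at least 3588 genes. Kcnc1, a subunit of fast potassium channels, stood at 103.7 CPM in Ifit1-high cells (16 of 28 with a read), 20.2 CPM in Ifit1-low cells (10 of 40) and 30.8 CPM in GFP cells. Kcnh3, a potassium channel of the ether-a-go-go family, stood at 21.6 CPM (7 of 28), 59.98 CPM (17 of 40) and, in GFP cells, 49.9 CPM. Its ratio of -1.43 was -0.08 within the later titles and -0.34 with the sides split at 1 CPM of Ifit1. Of 20 measured partners of Id proteins and related factors, 2 were higher by all 3 ratios (10%, against 11.3% of all measured genes), Arnt and Usf1, and 1, Bhlhe41, a repressor of the clock, was lower, at 9.47 CPM in Ifit1-high, 49.8 CPM in Ifit1-low and 30.1 CPM in GFP cells.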
